A study of Gallus gallus with 12 samples.

Results

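The muscle miRNAs (myomiRs) of the miR-1, miR-133 and miR-206 families were examined in breast muscle of 2 chicken breeds. They were taken by name, as every listed miRNA whose name begins with gga-miR-1a, gga-miR-1b, gga-miR-133, gga-miR-206 or gga-miR-499. This found 4 of the 38 listed miRNAs: gga-miR-1a-3p, gga-miR-206, gga-miR-133c-3p and gga-miR-133a-5p. No listed name begins with gga-miR-1b, gga-miR-133b or gga-miR-499, and those miRNAs were not analysed here. Small RNA was sequenced from 6 pedigree male (PeM) broilers, a line selected for growth and feed efficiency, and from 6 Barred Plymouth Rock (BPR) chickens, a slow-growing foundational breed. The labels give no treatment for either group. All 12 birds are labelled as 8 weeks old, an age that the study's methods give as the upper limit, and each library came from a single bird. Breed, origin of the flock and husbandry cannot be told apart with these samples. The study's methods do not give the sex of the BPR birds, and male is part of the name of the PeM line. The part of sex was not tested.

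MyomiRs are made almost exclusively in striated muscle, where myogenic transcription factors such as MyoD, MEF2 and SRF switch on their genes. In vertebrates a miR-1 or miR-206 gene usually lies beside a miR-133 gene, and the pair is transcribed as 1 precursor. In mouse myoblasts miR-1 and miR-206 promote differentiation, among other ways by repressing the histone deacetylase HDAC4, while miR-133 has been linked to proliferation through SRF. MiR-1 and miR-206 share their seed, the bases that select target mRNAs, and miR-133 has a different one. In mice miR-206 is found in skeletal muscle and is higher in slow than in fast muscles.

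By name, the 4 miRNAs matched 6 RefSeq genes of assembly GRCg7b. MiR-1a-3p matched MIR1-1 and MIR1-2, miR-206 matched MIR206, miR-133c-3p matched MIR133C, and miR-133a-5p matched MIR133A1 and MIR133A2. MIR206 neighbours MIR133B, MIR133C neighbours MIR1B and MIR133A1 neighbours MIR1-2, with 0 genes between them in each case. MIR133A2 and MIR1-1 are separated by 1 gene. By these names the 2 measured miR-133 miRNAs belong to different genes. Mature miR-1a and miR-1b are near-identical, as are the 3p arms of the miR-133 genes, and how the authors' alignment divided reads between such copies is not given in the sources used here. Reads counted as miR-133c-3p may therefore include those of other miR-133 genes.

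Values were RPM (reads scaled to a common total), the share of a bird's aligned miRNA reads taken by each miRNA. Nearly all RPM values of a bird were whole multiples of a common step, taken as the value of 1 read. The total used for each bird was the smallest that made the most values whole. With 38 values per bird these recovered reads could not be checked further. The study reports far more clean reads than the recovered totals, and how many of those aligned is not given. All read counts, counting errors and intervals from reads given here rest on the recovered totals. Totals were 3021 to 9120 reads in PeM birds and 4784 to 12454 reads in BPR birds, so that 1 read was worth 80.3 to 331 RPM. A floor of 3 reads corresponded to 240.9 to 993 RPM. The log2 total differed by -0.66 (PeM minus BPR), with p = 0.0584 in an exact two-sided permutation test (n = 6 birds each). Across miRNAs, r between log2(RPM) of 2 birds was 0.892 to 0.98, and no library was a copy of another. Of marker miRNAs of other cell types, the endothelial miR-126-3p was at 68781.7 to 77126.8 RPM in PeM and 33001.4 to 70317.5 RPM in BPR. It was called higher in PeM (log2 fold change 0.57, limma adjusted p = 0.0283). Quantitative PCR in the study did not match the sequencing for this miRNA. The red cell miR-451 was at 2192.98 to 3299.49 RPM in PeM and 1291.51 to 14860.7 RPM in BPR, and the fibroblast miR-199-5p was at 2850.88 to 13571.7 RPM in PeM and 5138.91 to 11021.7 RPM in BPR. None of the 4 white blood cell markers and none of the 3 markers of slow fibres and heart were among the listed miRNAs. The part of these cell types in the results was not tested.

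The myomiRs made up a large part of the aligned miRNA reads of this muscle. Together the 4 miRNAs held 37.8% ± 4.17 of the reads in PeM and 38.3% ± 2.91 in BPR (SD, n = 6 birds each), with a range of 30.1% to 42.3% in PeM and 34.9% to 42.5% in BPR. The groups overlapped almost completely. By mean RPM over the 12 birds, miR-1a-3p ranked 1 of 38 with 33.6% of reads, miR-206 ranked 7 with 2.76%, miR-133c-3p ranked 14 with 1.05% and miR-133a-5p ranked 21 with 0.618%. The most abundant listed miRNA outside these families was miR-30c-5p, at 178734 ± 14945 RPM in PeM and 186869 ± 17959 RPM in BPR. The muscle label of the samples was thus matched by the level of miR-1a-3p in each bird. The order miR-1a-3p, miR-206, miR-133c-3p held in each of the 12 birds, and the ranges of these 3 miRNAs did not overlap. MiR-133a-5p and miR-133c-3p were neighbours in this order whose ranges overlapped.

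**Figure D1:**
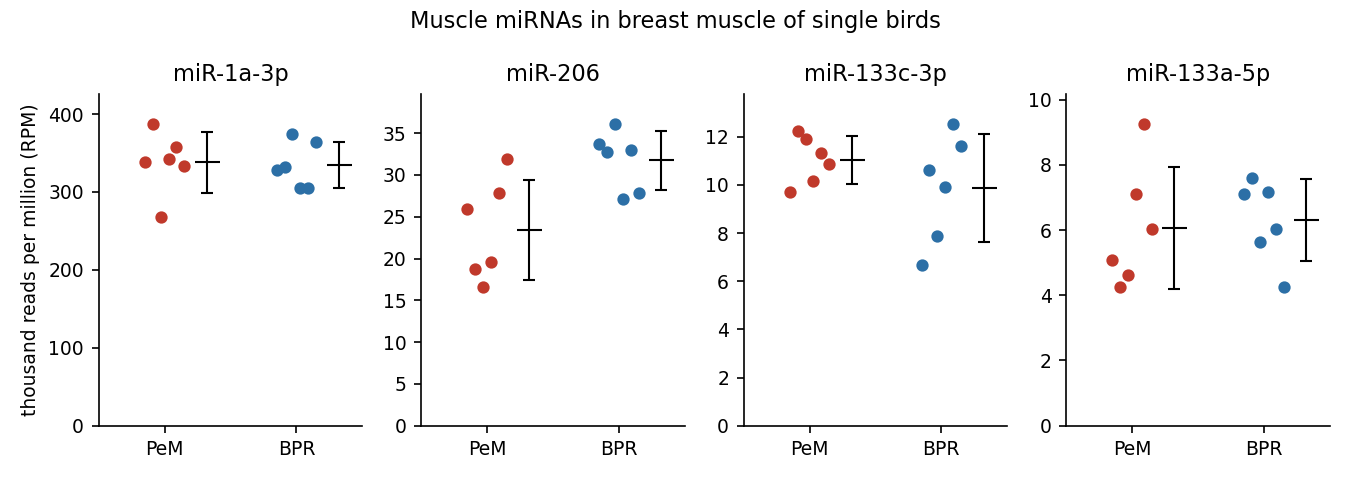
RPM of the 4 myomiRs, divided by 1000, with 1 point per bird and a separate axis from 0 for each miRNA. Lines and bars are the mean and SD of 6 PeM birds (red) and 6 BPR birds (blue). For miR-206, 4 of 6 PeM birds lie below every BPR bird, while the breeds overlap for the other miRNAs.

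MiR-206 was lower in PeM at the study's thresholds, which make no correction for testing many miRNAs, and did not pass after adjustment. MiR-206 was at 25878, 18771.3, 16550.8, 19543.1, 27789.2 and 31907.9 RPM in PeM birds 1, 4, 5, 8, 10 and 16. It was at 33653.8, 32778.3, 36133, 27120.7, 33015.9 and 27859.8 RPM in BPR birds 1, 2, 3, 4, 6 and 7. PeM birds 1, 4, 5 and 8 were below all BPR birds, and PeM birds 10 and 16 lay within the BPR range. The mean was 23406.7 ± 6016.66 RPM in PeM and 31760.2 ± 3523.01 RPM in BPR (SD, n = 6 each). The log2 fold change of -0.47 (PeM minus BPR, standard error 0.18, 95% interval -0.85 to -0.09) corresponded to 0.721 times the BPR level. Limma, a linear model that moderates each miRNA's variance towards that of all miRNAs, gave an unadjusted p of 0.0184 and a p adjusted over the 38 miRNAs of 0.104. The exact two-sided permutation test over birds gave p = 0.013 for miR-206, or 0.0823 after adjustment. Less miR-206 per cell and a smaller share of cells that make it cannot be told apart in whole muscle.

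Calls were made where limma's p, before adjustment, was under 0.05 and the levels differed over 1.2 times. By these thresholds, 8 of 38 listed miRNAs (21.1%) were called, 7 higher and 1 lower in PeM, and miR-206 was the lower one. Of the 4 myomiRs 1 was called, a share close to that of all listed miRNAs. With an adjusted p under 0.05, 5 of 38 (13.2%) passed and none was a myomiR. The median log2 fold change of the myomiRs was -0.04, against 0.07 over the 38 miRNAs. MiR-206 was called in each of the 12 fits that left out 1 bird, with log2 fold changes of -0.57 to -0.38. It was not called after centring each bird on its median (log2 fold change -0.52, limma adjusted p = 0.339), nor with the bird's log2 read total as a covariate (log2 fold change -0.22, limma adjusted p = 0.513).

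**Figure D2:**
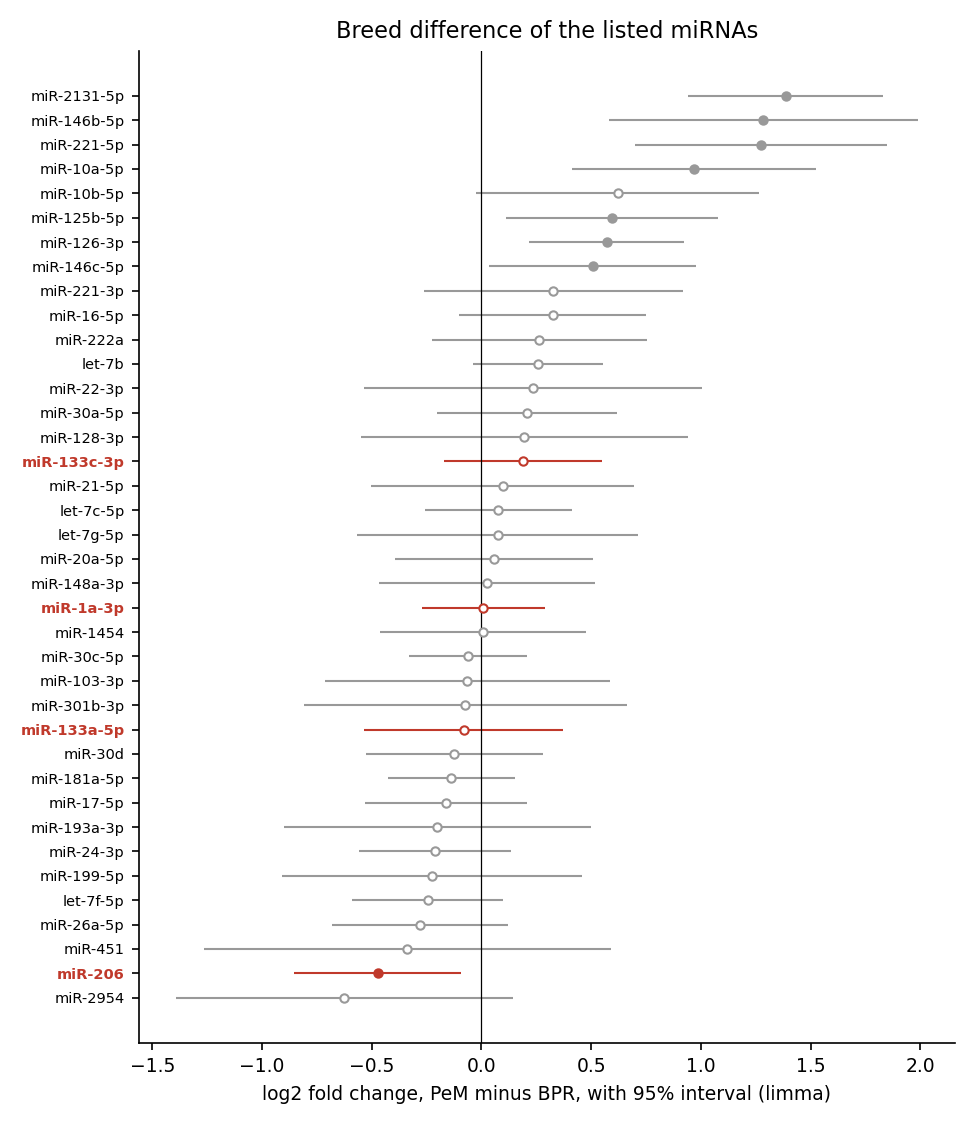
Log2 fold change of each of the 38 listed miRNAs, PeM minus BPR, with its 95% interval from limma and the highest value at the top. The 4 myomiRs are in red and called miRNAs have filled points. MiR-206, at -0.47, is the called miRNA on the BPR side, and the intervals of the other 3 myomiRs include 0.

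No difference in miR-1a-3p, the dominant miRNA of the muscle, was detected between the breeds. This miRNA was at 268123 to 387656 RPM in PeM, with a median of 340798 RPM, and at 305139 to 375060 RPM in BPR, with a median of 329986 RPM. Its lowest and its highest bird, PeM birds 5 and 4, were both PeM, and the groups overlapped. The mean was 337939 ± 39398.7 RPM in PeM and 334936 ± 29293.9 RPM in BPR, and the log2 fold change was 0.01 ± 0.13 (standard error), with an adjusted p of 0.974 from limma. The 95% interval of the fold ran between 0.828 and 1.22 times the BPR level. As the leading miRNA it rested on 810 to 3038 reads per PeM bird and 1571 to 4671 reads per BPR bird. In PeM bird 5 its share was 26.8% of reads (exact Clopper-Pearson 95% interval 25.2 to 28.4) and in PeM bird 4 it was 38.8% (37.2 to 40.4). These intervals cover counting error only, and the shares of these 2 birds lie outside each other's interval.

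MiR-133c-3p, a 3p arm of the miR-133 family, was at 9704.25 to 12229.8 RPM in PeM, with a median of 11088.4 RPM. In BPR it was at 6688.96 to 12539.7 RPM, with a median of 10263.6 RPM. The PeM birds lay wholly within the BPR range. Means were 11030 ± 986.8 RPM in PeM and 9874.75 ± 2231 RPM in BPR, and the log2 fold change was 0.19 (95% interval -0.17 to 0.55, limma adjusted p = 0.588). It rested on 36 to 99 reads per PeM bird and 32 to 98 reads per BPR bird.

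MiR-133a-5p, a 5p arm from the MIR133A genes, was the least abundant of the 4. Its level was 4266.21 to 9263.07 RPM in PeM, with a median of 5556.94 RPM, and 4243.54 to 7604.56 RPM in BPR, with a median of 6569.38 RPM. PeM bird 10 was above all BPR birds and the rest overlapped. The log2 fold change was -0.08 (95% interval -0.53 to 0.37, limma adjusted p = 0.896), on 14 to 55 reads per PeM bird and 23 to 70 reads per BPR bird. For both miR-133 miRNAs a breed difference was not detected, and the parts of depth and of variation between birds in this were not tested. The interval of miR-133a-5p includes the log2 fold change of miR-206, and that of miR-133c-3p does not.

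The myomiRs differed in how much they varied within a breed. The coefficient of variation of miR-206 was 25.7% in PeM and 11.1% in BPR, where counting error alone gives 9.59% in PeM and 6.69% in BPR. For miR-133c-3p it was 8.95% in PeM and 22.6% in BPR, against counting errors of 14.6% and 12.2% in the same breeds. The spread of miR-133c-3p between PeM birds was thus no larger than counting error at the recovered totals. MiR-1a-3p varied by 11.7% in PeM and 8.75% in BPR, several times its counting errors of 2.14% and 1.71%. MiR-133a-5p varied by 30.9% in PeM and 20.0% in BPR, with counting errors of 19.3% and 15.2%. Ranked by SD of log2(RPM) from the lowest of 38, miR-1a-3p was 6 in PeM and 3 in BPR, which places the most abundant miRNA among the least variable. MiR-206 was 19 in PeM and 6 in BPR, miR-133c-3p was 3 in PeM and 18 in BPR, and miR-133a-5p was 22 in PeM and 15 in BPR. The difference of spread between breeds was not tested.

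The make-up of the 4 myomiRs is given as a description. Of the reads of the 4 miRNAs together, miR-206 held 6.18% ± 1.42 in PeM and 8.31% ± 0.883 in BPR, and miR-1a-3p held 89.3% ± 1.58 in PeM and 87.4% ± 1.29 in BPR (SD, n = 6 each). MiR-133c-3p held 2.95% ± 0.506 in PeM and 2.60% ± 0.666 in BPR, and miR-133a-5p held 1.60% ± 0.439 in PeM and 1.66% ± 0.404 in BPR. MiR-1 and miR-206 share a seed, and their sum was 36.1% ± 4.12 of all reads in PeM and 36.7% ± 3.05 in BPR. MiR-206 formed 4.62% to 8.74% of this sum in PeM birds and 7.11% to 9.76% in BPR birds. PeM birds 1, 4, 5 and 8 were below all BPR birds, bird 1 by a small margin, and the other 2 overlapped with BPR.

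The ratio of miR-206 to miR-1a-3p does not depend on the total to which reads are scaled. There were 14.8 reads of miR-1a-3p per read of miR-206 in PeM (geometric mean, 10.4 to 20.7 in single birds) and 10.6 in BPR (9.25 to 13.1). The log2 ratio was -3.88 ± 0.356 in PeM and -3.40 ± 0.177 in BPR, a difference of -0.48 (exact two-sided permutation test, p = 0.0152, n = 6 each). Adjusted over the 703 ratios between listed miRNAs this p was 0.0995. Limma on the ratios gave an interval of -1.01 to 0.05, which includes 0, and an adjusted p of 0.248, so that the call rests on the test used. In all, 177 of 703 ratios (25.2%) had an exact p under 0.05. Among them were 17 of the 37 ratios that hold miR-206, 6 of 37 with miR-1a-3p, 8 of 37 with miR-133c-3p and 5 of 37 with miR-133a-5p. The ratio of miR-206 to the other miRNA was lower in PeM for 36 of the 37, though these ratios share miR-206 and are not independent. Each difference is the log2 fold change of miR-206 less that of the other miRNA. The 36 thus only restate that the log2 fold change of miR-206 was among the lowest of the listed miRNAs.

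Before adjustment miR-206 was also lower in PeM relative to miR-133c-3p. There were 2.07 reads of miR-206 per read of miR-133c-3p in PeM (1.39 to 2.94) and 3.27 in BPR (2.40 to 5.03). The log2 difference was -0.66 (exact permutation test, p = 0.0346, adjusted p = 0.159), and 3 of 6 PeM birds were below all BPR birds. Leaving out any of PeM birds 4, 5 and 8 or BPR birds 1, 2 and 3 raised the p of the exact test above 0.05, up to 0.0736. Relative to miR-133a-5p, miR-206 was at 3.90 reads in PeM and 5.11 in BPR, a log2 difference of -0.39 (exact permutation test, p = 0.0931). The limma interval for miR-206 over miR-133a-5p was -0.96 to 0.17, which includes 0, as does that for miR-206 over miR-1a-3p. The 3 ratios without miR-206 gave smaller differences, also with limma intervals that include 0. The log2 difference was 0.18 (-0.37 to 0.73) for miR-133c-3p over miR-1a-3p, -0.09 (-0.68 to 0.50) for miR-133a-5p over miR-1a-3p and -0.27 (-0.92 to 0.38) for miR-133a-5p over miR-133c-3p. MiR-133a-5p formed 35.0% ± 7.37 of the miR-133 reads in PeM and 39.4% ± 8.63 in BPR.

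**Figure D3:**
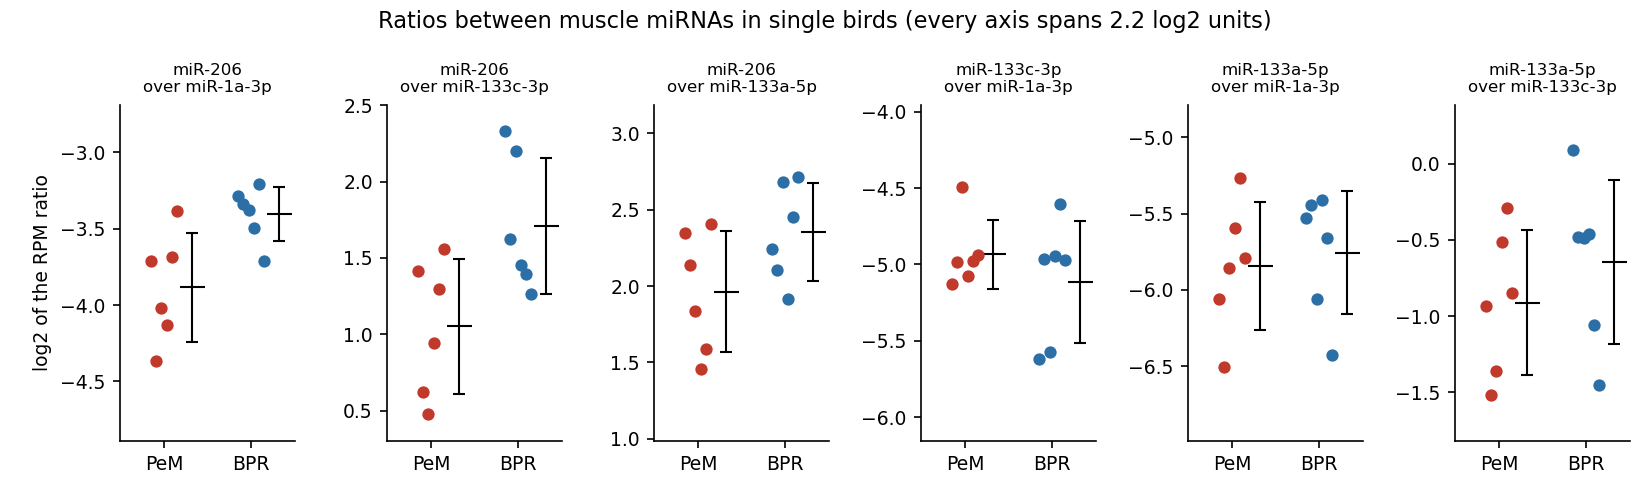
Log2 of the RPM ratio for the 6 pairs of myomiRs, with 1 point per bird, PeM in red and BPR in blue, and the mean and SD of 6 birds. Each axis covers 2.2 log2 units and has its own range. The breeds are furthest apart where miR-206 is set against miR-133c-3p, by -0.66, and against miR-1a-3p, by -0.48.

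No correlation between myomiRs was detected over birds at the deposited scaling. Over the 12 birds, none of the 6 pairs correlated at a permutation p under 0.05, against 72 of 703 pairs (10.2%) of all listed miRNAs. The highest Pearson's r was 0.39 between miR-206 and miR-133a-5p (permutation p = 0.207, adjusted over 703 pairs 0.659, Spearman's rho 0.31 with p = 0.316). Without the 2 birds farthest from the median of miR-206 that r was -0.08. MiR-206 and miR-1a-3p, which share a seed, had an r of 0.21 (permutation p = 0.521, rho 0.02 with p = 0.956). The lowest r was -0.46 between miR-206 and miR-133c-3p (permutation p = 0.125, rho -0.36 with p = 0.247), with -0.42 within PeM and -0.46 within BPR. MiR-133c-3p and miR-133a-5p had an r of -0.28 (permutation p = 0.376, rho -0.33 with p = 0.296). RPM values of a bird share 1 total, and centring each bird on its median gave positive r for each of the 6 pairs, with 3 of them then at a permutation p under 0.05. These were miR-206 with miR-1a-3p (0.75), miR-206 with miR-133a-5p (0.72) and miR-133a-5p with miR-1a-3p (0.62). These relations therefore depended on the scaling. How many of all 703 pairs had such a p after centring is not given here. The 3 of 6 pairs can therefore not be read as particular to the myomiRs.

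For each myomiR, the 3 listed miRNAs with the highest r were taken out of the 37 others. The miRNA most like miR-206 over the 12 birds was let-7f-5p (r = 0.67, permutation p = 0.0178, adjusted p = 0.364), then miR-181a-5p (0.47). For let-7f-5p the r was 0.70 within PeM and -0.03 within BPR. Both miRNAs also varied with the log2 read total of the bird, with an r of 0.81 for miR-206 and 0.58 for let-7f-5p. The permutation p for let-7f-5p was 0.0446 (adjusted 0.234), and the part of the read total in this pair was not tested. MiR-133c-3p was most like miR-1454 (r = 0.78, permutation p = 0.00344, adjusted p = 0.205), with an r of 0.59 in PeM and 0.94 in BPR. It was followed by miR-10a-5p (0.65) and miR-125b-5p (0.62), and the r with miR-10a-5p had opposite signs in the breeds, -0.70 in PeM and 0.86 in BPR. The differences of r between breeds were not tested. MiR-133a-5p was most like let-7g-5p (0.65), miR-20a-5p (0.64) and miR-21-5p (0.52). MiR-1a-3p was most like let-7c-5p (0.48), miR-26a-5p (0.47) and let-7f-5p (0.45). Before adjustment, miR-206 and miR-133c-3p each had 6 of 37 pairs with a permutation p under 0.05, and miR-1a-3p and miR-133a-5p each had 4 of 37. Over all listed miRNAs it was 72 of 703 pairs (10.2%). After adjustment over the 703 pairs, no pair with a myomiR had a p under 0.05. How many of all pairs did is not given here, so this cannot be read as particular to the myomiRs. The strongest inverse relation of miR-1a-3p named here was that with miR-30c-5p, the next most abundant miRNA (r = -0.76, permutation p = 0.00298), and these 2 miRNAs take up much of the shared total.

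MiR-206 varied with the number of reads of the bird over the 12 birds and within PeM, while within BPR no such relation was detected. Its log2(RPM) had an r of 0.81 with the log2 total over the 12 birds (permutation p = 0.00146, adjusted over the 38 miRNAs 0.0365) and a rho of 0.74 (p = 0.00831, adjusted 0.158). These permutations moved birds across breeds, so that this r also holds the difference between breeds. With both measures centred on the mean of each breed, r was 0.70 (permutation p = 0.0105). Of the 38 miRNAs, 7 (18.4%) had a Pearson p under 0.05 without this centring. In PeM the 6 birds had the same order in both measures (rho 1, exact permutation p = 0.00278), with an r of 0.89, or 0.96 without PeM bird 16, which had the most reads of its breed. In BPR the r was 0.32 (exact permutation p = 0.529) and the rho was 0.03. Without PeM bird 16 and BPR bird 3, the 2 totals farthest from the median, the r over the remaining 10 birds was 0.79. The other myomiRs gave an r of 0.19 for miR-1a-3p, -0.31 for miR-133c-3p and 0.27 for miR-133a-5p (permutation p = 0.557, 0.324 and 0.386 in that order).

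**Figure D4:**
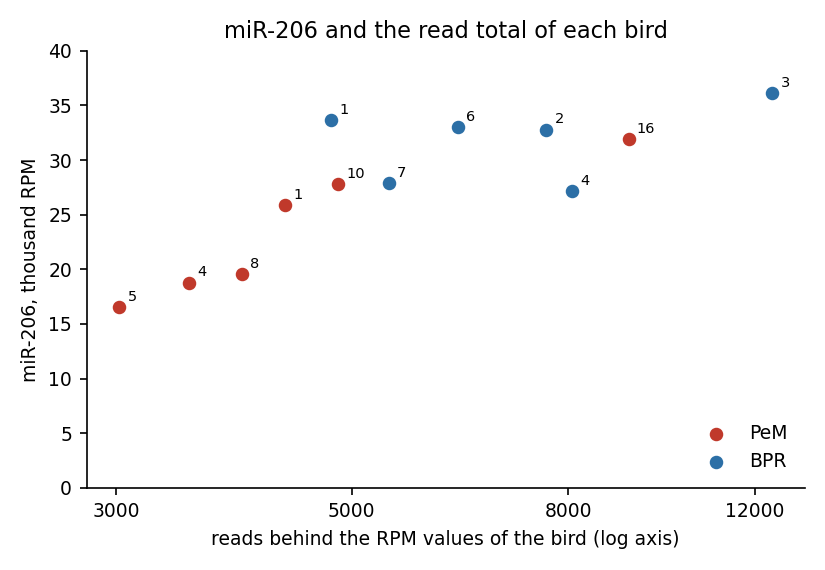
MiR-206 in RPM divided by 1000 against the number of reads behind the RPM values of each bird on a log axis, with PeM in red, BPR in blue and the bird number beside each point. The 6 PeM birds ascend in 1 order with r = 0.89, and the BPR birds do not (r = 0.32).

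The breeds could be set side by side at similar totals in few birds. PeM bird 10 with 4858 reads was at 27789.2 RPM of miR-206, and PeM bird 1 with 4328 reads was at 25878 RPM. Above both were BPR bird 1 with 4784 reads at 33653.8 RPM and BPR bird 7 with 5420 reads at 27859.8 RPM, the latter close to PeM bird 10. PeM bird 16 with 9120 reads was at 31907.9 RPM, between BPR bird 4 with 8075 reads (27120.7 RPM) and BPR bird 2 with 7627 reads (32778.3 RPM). With the log2 total as a covariate, the log2 fold change of miR-206 was -0.22 (standard error 0.19, 95% interval -0.62 to 0.18, limma adjusted p = 0.513) and it was not called. Breed and read total moved together in these birds, and their parts in the sequenced level of miR-206 cannot be told apart. Quantitative PCR in the study, scaled to a ribosomal RNA, also gave less miR-206 in PeM. By the study's account it matched the sequencing for every miRNA that the study called except miR-126-3p. Those values were not re-analysed here, and their bearing on the part of the read total was not tested. In reads, miR-206 of PeM bird 5 was 50 of 3021, or 1.66% (exact Clopper-Pearson 95% interval 1.23 to 2.18), and that of PeM bird 16 was 291 of 9120, or 3.19% (2.84 to 3.57). In BPR bird 3 it was 3.61% (3.29 to 3.96). The spread of miR-206 between PeM birds was thus larger than counting error.

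Other miRNAs with a known role in muscle cells were called about as often as the listed miRNAs as a whole. Of 13 such miRNAs 6 were listed, and 1 was called higher and 0 lower in PeM, beside 7 higher and 1 lower of all 38 (21.1% called), with a median log2 fold change of 0.06 beside 0.07 for the 38 miRNAs. The called one was miR-125b-5p, which represses IGF2 in mouse myoblasts, at a log2 fold change of 0.59 (limma adjusted p = 0.104). MiR-26a-5p, which promotes differentiation of mouse myoblasts, had -0.28 and was not called. MiR-24-3p had -0.21 and miR-181a-5p had -0.14, and both are known from myoblast differentiation in mice. MiR-221-3p and miR-222a, which repress the cell cycle inhibitor p27 in myoblasts, had 0.33 and 0.26 and were not called.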

How the data were processed

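Small RNA of breast muscle was sequenced in 6 PeM and 6 BPR birds. The authors trimmed adapters with bbduk, aligned the reads to miRBase mature chicken miRNAs with ArrayStar, removed miRNAs with a mean below 5 reads in each breed, and deposited RPM (reads of a miRNA scaled to a common total) for 38 miRNAs. The submitters' processing notes name FastQC and galGal5, and the versions of FastQC, bbduk and ArrayStar and the miRBase release are not given in the sources used here. The authors' log2 means, log2 fold changes, p-values and group means in the same table were not used.

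The log2(RPM) values, with no pseudocount added, were fitted on breed alone in limma 3.58.1 under R 4.3.3 (prior degrees of freedom 3.93) with Benjamini-Hochberg adjustment over the 38 miRNAs. Limma stands in for the t-statistic of the study. Exact permutation tests covered the 924 assignments of birds to breeds, and the smallest p they can give is 0.00216. Correlations over 12 birds used 100000 permutations. The fits were tested on simulated data. Python 3.11.15, scipy 1.17.1 and matplotlib 3.10.9 were used. Reads were recovered from the RPM steps, with 446 of 456 values (97.8%) and all 48 myomiR values whole within 0.02 reads. The intervals from these reads cover counting error only, as amplified reads carrying no molecular identifiers are not independent.

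The miRNAs named are the 4 myomiRs, the 3 most correlated with each, the members of the lists given and the most abundant other miRNA. Members and lists were chosen with earlier results of these data known. Alternatives were the pseudocount, the scaling, a filter on low RPM, limma-trend, the exact test, the fold threshold, a replicate block and leaving out each bird. Limma-voom on the recovered reads, the read total as a covariate and the correlations with it were added after seeing the data. Birds numbered 1 and 4 exist in PeM and in BPR and are different animals, and the replicate block was fitted on these 4 birds alone.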

Additional observations from a re-analysis of the deposited data

Results flagged for a closer look

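Of 42 groups of 6 birds examined for a single bird far from the others, 5 had one, and chance alone would give about 2.1 of them (5%). PeM bird 5, which had the fewest reads, stood apart from the other PeM birds in 4 related measures. Its 4 myomiRs together held 30.1% of reads, and those of the other PeM birds held 37.9% to 42.3%. Its miR-206 and miR-1a-3p together held 28.5% of reads, against 36.2% to 40.6%. Its miR-133c-3p formed 3.96% of the myomiR reads, against 2.56% to 2.89%, and its log2 ratio of miR-133c-3p to miR-1a-3p was -4.49, against -5.13 to -4.94. The read total of PeM bird 16 was 9120, where the rest of its breed had 3021 to 4858. The causes were not tested. Without PeM bird 5 and without PeM bird 16, miR-206 was still called lower in PeM.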

How the results depend on the processing

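Of 135 values under alternatives other than leaving out 1 bird, 108 were labelled as unchanged. For fold changes, ratios and correlations this means the same direction and side of the threshold, and it includes values that passed no threshold in either case. For numbers of calls it refers to the number alone, not to which miRNAs were called. Not all of these alternatives used every bird. The replicate block used only 4 birds, 2 per breed, and the correlations were also taken without the 2 farthest birds. For miR-206 the log2 fold change was -0.518 with each bird centred on its median, -0.455 with a replicate block on bird numbers 1 and 4 and -0.22 with the read total as a covariate, and none of these was called, nor was its -0.47 at a fold threshold of 1.5. It was called in all other alternatives, including limma-voom on recovered reads (-0.402, adjusted p = 0.0681), and leaving out 1 bird gave -0.57 to -0.381. Limma-trend gave an adjusted p of 0.032. MiR-1a-3p reversed to -0.037 after median centring and to -0.072 after rescaling to the listed miRNAs outside the myomiRs, and ranged from -0.0327 to 0.0737 without 1 bird. MiR-133a-5p turned to 0.037 with the covariate and ranged from -0.214 to 0.010 (without PeM bird 4) on leaving out 1 bird.

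Calls numbered 8, or 5 at a fold of 1.5 and 7 to 10 without 1 bird. Median centring left 6 higher and 0 lower, and the covariate left 5 higher and 3 lower. Limma's adjusted calls numbered 5, with 3 after a filter at 2000 RPM, 2 with the replicate block, 3 without PeM bird 1 or BPR bird 3, 2 without PeM bird 8 and 2 to 6 over all birds left out. With the exact permutation test 0 passed after adjustment and 8 were called before it.

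The values for ratios are PeM minus BPR differences of the log2 ratio. For miR-206 over miR-1a-3p the difference was -0.481 under limma, -0.65 with the block and -0.277 with the covariate, none past the threshold. Without 1 bird it was -0.581 to -0.384. For miR-206 over miR-133c-3p the difference was -0.363 with the covariate and -0.762 to -0.537 without 1 bird. For miR-206 over miR-133a-5p it turned to 0.163 with the block. The difference for miR-133a-5p over miR-133c-3p was -1.04 with the block (limma adjusted p = 0.227), past the unadjusted threshold. That for miR-133a-5p over miR-1a-3p ranged from -0.223 to 0.0427 without 1 bird.

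Among correlations, median centring gave 0.716 for miR-206 with miR-133a-5p, 0.307 with miR-133c-3p and 0.754 with miR-1a-3p, then 0.305 for miR-133a-5p with miR-133c-3p, 0.62 for miR-133a-5p with miR-1a-3p, 0.554 for miR-133c-3p with miR-1a-3p and 0.304 for miR-133c-3p with the read total. Without the 2 farthest birds r was -0.0757 for miR-206 with miR-133a-5p, -0.0225 for miR-206 with miR-1a-3p and -0.0401 for miR-1a-3p with the read total. Without 1 bird, r ranged from -0.35 to 0.508 for miR-206 with miR-1a-3p, -0.453 to 0.148 for miR-133a-5p with miR-1a-3p, -0.321 to 0.0414 for miR-133c-3p with miR-1a-3p, -0.205 to 0.418 for miR-1a-3p with the read total and 0.745 to 0.882 for miR-206 with it.

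The replicate block joins different animals that share only a number, and it leaves 2 birds per breed. Their deviations from the breed means correlated at 0.0285 for number 1 and -0.173 for number 4. The causes of these shifts were not tested. A planned count test with 2 library scalings was not run, since 38 values per bird were too few to check the recovered reads. At 14 to 99 reads per PeM bird, counting error in PeM was 14.6% for miR-133c-3p and 19.3% for miR-133a-5p.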
